A study of Mus musculus with 24 samples.

Results

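The interferon-stimulated genes described here are 44 genes of the mouse genome, chosen by name from the 45468 genes counted in each library, and followed across 4 stages of brain endothelium with and without endothelial Sox17. All 44 had enough counts to be tested. They lie on 16 chromosomes, and several families lie side by side: Ifit2, Ifit3 and Ifit1 on chromosome 19, Oas2 and Oas1a on chromosome 5, and Sp110 and Sp100 on chromosome 1. RNA came from endothelial cells freshly isolated from brain, first depleted of cells with CD45 (a leukocyte surface protein) and then selected for CD31 (an endothelial surface protein). In the groups called KO (Sox17iECKO), both Sox17 alleles were floxed and the animals carried Cdh5(PAC)-CreERT2, a recombinase that is expressed from an endothelial promoter and activated by tamoxifen. In the groups called wt, both Sox17 alleles were floxed as well, tamoxifen was given on the same schedule, and there was no CreERT2. KO and wt were compared at the embryonic stage E15.5, at postnatal days 5 and 9 (P5 and P9) and in adults, with 3 libraries in each of the 8 groups. Tamoxifen was given to the mother as 2 injections of 1 mg at days 11.5 and 13.5 of pregnancy for E15.5, to the pups as 100 µg on postnatal day 1 for P5 and P9, and from 6 weeks of age as 4 injections of 1.5 mg, 1 week before collection, for adults. E15.5 and P5 brains were dissociated with a neural tissue kit and P9 and adult brains with an adult brain kit. Stage therefore cannot be told apart from time since tamoxifen, or from tamoxifen schedule except between P5 and P9, which shared a schedule. Nor can stage be told apart from kit wherever E15.5 or P5 is compared with P9 or adults. CreERT2 was present in KO animals only, so its presence and the loss of Sox17 cannot be told apart either. The labels call the 3 libraries of a group independent biological replicates and do not say whether each came from 1 animal or a pool.

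Interferons are secreted proteins that warn cells of viral infection. Type I interferons (interferon alpha and beta) signal through the receptor IFNAR1/IFNAR2 and the kinases JAK1 and TYK2 to a complex with STAT2 and IRF9, which binds the interferon-stimulated response element in the promoters of its target genes. Interferon gamma signals through IFNGR1/IFNGR2, and its target genes carry a gamma-activated site. Many of the induced proteins block viral entry, replication or release, others sense viral nucleic acid or tune the signal, and brain endothelium, which lies between blood and neural tissue, carries receptors of both kinds.

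Promoters of the members were searched for both elements, and 7 of them are shown because they belong to members described in detail below and differ in the elements they hold. Promoters are those of RefSeq on GRCm38.p6, from 250 bases before to 50 bases after the start of the gene, written 5′ to 3′ on the strand of the gene. Capitals mark each match to the core of the interferon-stimulated response element, GAAA followed after any 2 bases by GAAA, or the same core on the other strand, where it reads TTTC, any 2 bases, TTTC. The promoters shown are those of Isg15 (chr4:156200769-156201068, minus strand), Bst2 (chr8:71537423-71537722, minus strand), Ifit1 (chr19:34640639-34640938, plus strand), Oas1a (chr5:120907476-120907775, minus strand), Gbp3 (chr3:142559794-142560093, plus strand), Irgm2 (chr11:58214727-58215026, plus strand) and Irf7 (chr7:141266375-141266674, minus strand).
Isg15: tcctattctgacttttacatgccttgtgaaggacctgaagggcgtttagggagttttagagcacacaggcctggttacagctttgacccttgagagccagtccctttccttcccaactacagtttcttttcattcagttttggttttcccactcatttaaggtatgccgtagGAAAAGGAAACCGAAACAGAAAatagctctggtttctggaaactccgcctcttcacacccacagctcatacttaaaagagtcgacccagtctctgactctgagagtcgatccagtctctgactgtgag
Bst2: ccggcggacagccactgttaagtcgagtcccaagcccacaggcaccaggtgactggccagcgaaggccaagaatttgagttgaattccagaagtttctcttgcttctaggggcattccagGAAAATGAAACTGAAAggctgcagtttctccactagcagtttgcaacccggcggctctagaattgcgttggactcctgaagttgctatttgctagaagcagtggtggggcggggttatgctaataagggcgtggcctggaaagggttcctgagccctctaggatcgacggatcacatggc
Ifit1: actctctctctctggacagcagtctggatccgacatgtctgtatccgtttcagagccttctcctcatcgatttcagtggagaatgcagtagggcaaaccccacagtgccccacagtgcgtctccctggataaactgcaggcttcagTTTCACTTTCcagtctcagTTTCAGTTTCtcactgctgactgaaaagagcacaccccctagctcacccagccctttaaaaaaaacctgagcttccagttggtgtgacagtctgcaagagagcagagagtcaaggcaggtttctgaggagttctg
Oas1a: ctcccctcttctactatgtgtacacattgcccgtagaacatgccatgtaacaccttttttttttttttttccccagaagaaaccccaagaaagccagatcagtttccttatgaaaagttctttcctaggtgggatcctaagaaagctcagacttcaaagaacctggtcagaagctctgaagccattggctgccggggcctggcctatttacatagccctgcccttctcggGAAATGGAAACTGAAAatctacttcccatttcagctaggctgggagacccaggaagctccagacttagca
Gbp3: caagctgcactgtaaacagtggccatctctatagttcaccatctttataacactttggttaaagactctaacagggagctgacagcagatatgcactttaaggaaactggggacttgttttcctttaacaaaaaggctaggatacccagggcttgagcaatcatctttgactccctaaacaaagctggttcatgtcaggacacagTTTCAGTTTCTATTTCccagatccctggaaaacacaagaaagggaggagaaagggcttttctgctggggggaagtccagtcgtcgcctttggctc
Irgm2: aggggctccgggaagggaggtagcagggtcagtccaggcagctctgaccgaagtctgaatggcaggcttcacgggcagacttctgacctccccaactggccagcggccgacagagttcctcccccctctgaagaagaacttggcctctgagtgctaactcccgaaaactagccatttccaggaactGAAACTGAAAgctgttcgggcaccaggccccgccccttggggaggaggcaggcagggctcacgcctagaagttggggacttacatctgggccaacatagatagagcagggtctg
Irf7: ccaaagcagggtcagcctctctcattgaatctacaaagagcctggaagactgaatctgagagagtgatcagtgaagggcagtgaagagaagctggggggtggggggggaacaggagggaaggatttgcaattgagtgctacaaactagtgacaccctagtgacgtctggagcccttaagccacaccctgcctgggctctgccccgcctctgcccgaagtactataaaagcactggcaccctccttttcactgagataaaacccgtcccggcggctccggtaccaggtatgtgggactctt

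Isg15 held 3 overlapping matches that began between 78 and 66 bases before the start. Bst2 and Oas1a held 2 overlapping matches each, Ifit1 held 2 separate matches on the other strand that began 104 and 85 bases before the start, and in the Gbp3 promoter 2 overlapping matches lay on the other strand. Irgm2 held 1 match, and the Irf7 window held none. A promoter was available for 31 members, of which 18 (58.1%, exact binomial 95% interval 39.1% to 75.5%) held the core in at least 1 promoter, against 1079 of 27025 genes with a promoter (3.99%) and 3.44% of all 32851 promoters of the same length. With CT required after the second GAAA, 11 members (35.5%) matched, against 0.303% of genes. The gamma-activated site, searched as TTC, any 3 bases, GAA, which reads the same on both strands, was found for 9 members (29.0%) and for 9.55% of genes. There were 7 members with both elements, among them Bst2, Oas1a and Irgm2, and 11 with neither, among them Irf7, Sp100, Sp110, Mlkl, Oasl1, Oasl2 and Ifi44. A match describes letters in this window and not a bound site.

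Each library held 12301779 to 19830600 counts, so that 3 counts correspond to 0.151 to 0.244 CPM (counts scaled to a common library size, here by the TMM method). Sox17 lay between 8.33 and 78.1 CPM in KO libraries and between 78.3 and 353 CPM in wt libraries, without overlap at any stage and with log2 changes of -3.30 at E15.5, -4.05 at P5, -3.82 at P9 and -2.49 in adults (edgeR's quasi-likelihood test, Benjamini-Hochberg adjusted p 4.5e-10 to 8.6e-06). The 12 endothelial markers, among them Cdh5, Pecam1 and Cldn5, summed to 5230 to 6362 CPM in KO and 5053 to 5949 CPM in wt at E15.5, and to at least 14140 CPM in every later library. In bulk samples fewer cells of a type and less RNA per cell cannot be told apart. Both E15.5 libraries numbered 3 had been set apart in an earlier analysis of these data, and counts at E15.5 are given with and without them.

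In KO embryos at E15.5 the interferon-stimulated genes were higher as a group. All 44 log2 fold changes were above 0, with a median of 1.28 and a range of 0.20 to 2.90, while the median of all 17159 genes tested was 0.01. The test called 29 members higher and none lower, where it called 0.42% of all genes higher and 0.128% lower. In 38 members every KO library lay above every wt library, a pattern found for 4.99% of all genes, and in none did it lie below, found for 3.36% of all genes. The other 6 were Mx1, Dhx58, Zbp1, Gbp7, Ifit2 and Iigp1. The summed level of the 44 members was 806, 806 and 646 CPM in the KO libraries, against 353, 449 and 320 CPM in the wt libraries. That is a mean of 753 ± 92.2 CPM in KO and 374 ± 67.0 CPM in wt (SD, n = 3 each), and the 2 groups did not overlap. The map of log2 fold changes gives every member at every stage.

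**Figure D1:**
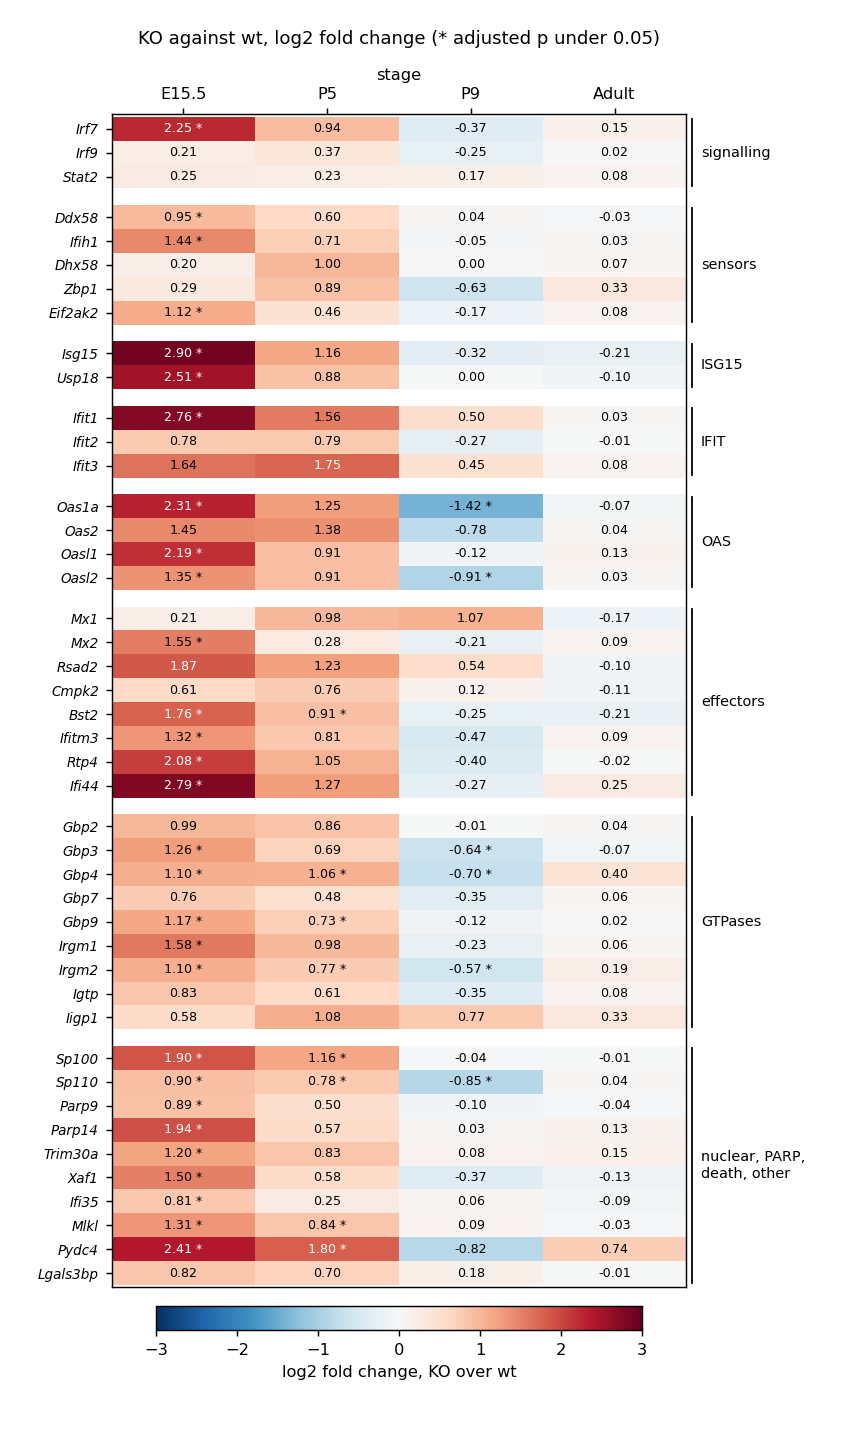
Log2 fold change of KO over wt for the 44 members (rows, grouped by role) at the 4 stages (columns). Asterisks mark an adjusted p under 0.05. Red cells fill the E15.5 and P5 columns, the P9 column holds 6 asterisks on blue cells, and the adult column is pale with no asterisk. Pydc4 at E15.5 and Mx1 at P9 each rest on 2 counts in wt.

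The ISG15 system had the highest median difference of the roles at E15.5 (log2 2.71, with both members higher). Isg15, a ubiquitin-like protein that is attached to other proteins and also secreted, had 21.2, 23.3 and 16.3 CPM in the KO libraries against 2.78, 4.11 and 0.943 CPM in the wt libraries. The lowest KO library was thus well above the highest wt library, and the log2 change was 2.90 ± 0.37 (SE; adjusted p 0.00011). Usp18, the protease that removes ISG15 and dampens the type I receptor, had 13.8, 14.4 and 10.5 CPM in KO against 2.12, 3.20 and 1.18 CPM in wt. These groups did not overlap either (log2 2.51 ± 0.35, adjusted p 0.00026).

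Among antiviral effectors 5 of 8 members rose. Bst2 (tetherin, which holds budding virus at the cell surface) had the smallest adjusted p of the 44, with 57.3, 46.0 and 46.2 CPM in KO against 9.89, 18.3 and 15.504 CPM in wt (log2 1.76 ± 0.22, adjusted p 5.9e-05). Ifi44, an interferon-induced cytoplasmic protein, had 12.7, 15.3 and 11.1 CPM in KO against 1.03, 3.44 and 0.825 CPM in wt (2.79 ± 0.37, adjusted p 0.00019). Rtp4, a chaperone for some receptors of the cell surface, had 19.3, 25.1 and 14.1 CPM in KO against 4.17, 5.86 and 3.48 CPM in wt (2.08 ± 0.31, adjusted p 0.00064). All 3 were separated by a wide gap between KO and wt. Ifitm3, which blocks fusion of virus in endosomes, and Mx2, annotated here as a polymorphic pseudogene, rose by 1.32 and 1.55 log2. Rsad2 (viperin, 1.87), Cmpk2, a mitochondrial nucleotide kinase (0.61), and Mx1, a dynamin-like GTPase that restricts influenza virus (0.21), did not pass the test (adjusted p 0.14, 0.70 and 1).

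Of the nuclear body, PARP, cell death and other proteins 9 of 10 rose. Parp14, a mono-ADP-ribosyltransferase, had 21.6, 22.6 and 16.4 CPM in KO against 4.39, 7.85 and 3.24 CPM in wt (log2 1.94 ± 0.27, adjusted p 0.00025). Sp100, a nuclear body protein, had 4.21, 4.23 and 4.18 CPM in KO against 0.879, 1.69 and 0.531 CPM in wt (1.90 ± 0.26, adjusted p 0.00026). Mlkl, the executor of necroptosis, had 5.59, 3.92 and 4.49 CPM in KO against 1.68, 1.81 and 1.89 CPM in wt (1.31 ± 0.19, adjusted p 0.00033). None of these 3 genes overlapped between KO and wt. Xaf1 (log2 1.50), Trim30a (1.20), Sp110 (0.90), Parp9 (0.89) and Ifi35 (0.81) also rose. Pydc4, a pyrin-domain protein gene, had 47 counts over the KO libraries and 2 over the wt libraries, a ratio of 18.5 after scaling (95% counting interval 4.85 to 157). Lgals3bp, a secreted galectin-binding glycoprotein, had a log2 value of 0.82 and did not pass (adjusted p 0.15).

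The other families were called in part. Among sensors of nucleic acid, Ifih1 (MDA5, a sensor of long double-stranded RNA; log2 1.44), Eif2ak2 (PKR, the kinase that halts translation on double-stranded RNA; 1.12) and Ddx58 (RIG-I; 0.95) rose, while Zbp1, a sensor of Z-form nucleic acid (0.29), and Dhx58 (LGP2, a RIG-I relative; 0.20) did not pass. The OAS family makes or resembles enzymes that make 2′-5′ oligoadenylate, the activator of RNase L. Oas1a (2.31), Oasl1 (2.19) and Oasl2 (1.35) rose, and Oas2 (1.45) did not pass (adjusted p 0.075). Of the IFIT proteins, which bind foreign RNA, Ifit1 rose (2.76, adjusted p 0.0050), and Ifit3 (1.64) and Ifit2 (0.78) did not pass (adjusted p 0.62 and 0.77).

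Within signalling, Irf7, the transcription factor that amplifies type I interferon production, had 21.8, 23.2 and 15.2 CPM in KO against 3.51, 6.82 and 2.004 CPM in wt (log2 2.25, adjusted p 0.00066). Its partners of the response complex, Stat2 (0.25, adjusted p 0.77) and Irf9 (0.21, adjusted p 1), did not pass. The GBP and IRG proteins are large and small GTPases that act on membranes of intracellular pathogens. Irgm1 (1.58), Gbp3 (1.26), Gbp9 (1.17), Irgm2 (1.10) and Gbp4 (1.10) rose, and Gbp2 (0.99), Igtp (0.83), Gbp7 (0.76) and Iigp1 (0.58) did not pass. Irgm2 and Igtp overlap on one strand, as do Gbp4 and Gbp9, and Irf9 overlaps Rnf31. In all, 7 members overlap another gene on the same strand. The OAS, IFIT and GBP genes also have close paralogs. For all of these a share of the counts may belong to a neighbour or copy.

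The E15.5 calls depended on the libraries used. Without both libraries numbered 3, 22 members were called higher, and in a fit of the 6 E15.5 libraries alone 4 were called, namely Bst2, Isg15, Rtp4 and Usp18, which were called under every alternative run at this stage. There were 21 calls without wt library 1, 20 without wt library 3, 24 with KO library 1 left out and 21 with KO library 2 left out, with adjusted p between 0.058 and 0.29 for the calls lost, and 19 members were called whichever single library was left out. Red cell markers moved with this comparison, since 5 of 7 were lower in KO and their sum was 532 to 832 CPM in KO against 2578 to 3473 CPM in wt. Platelet markers did too, with 3 of 5 lower in KO and sums of 18.7 to 23.1 CPM in KO against 36.7 to 54.0 CPM in wt. The part of either in the interferon-stimulated genes was not tested. Microglia and macrophage markers, none of 10 called, summed to 27.5 to 31.0 CPM in KO and 27.5 to 32.4 CPM in wt. Other leukocyte markers (0 of 16 called higher and 1 lower, with 10 tested) summed to 4.80 to 7.97 CPM in KO and 6.13 to 12.6 CPM in wt, and Nkg7, a marker of cytotoxic lymphocytes, was at 0 in all 6 libraries.

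At P5 the members were again higher in KO. All 44 log2 fold changes were above 0 with a median of 0.85 and a range of 0.23 to 1.80, and 8 members were called higher and none lower, against 0.396% and 0.134% of all genes. KO and wt did not overlap for 35 members, all with KO above wt, against 7.8% of all genes above and 7.22% below. The summed level was 1753, 1614 and 1930 CPM in KO against 983, 1342 and 881 CPM in wt. Even the highest wt library lay below the lowest KO library.

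Nuclear body and GTPase genes made up 5 of the 8, and Pydc4 is given with them. Sp100 had 42.4, 41.2 and 40.1 CPM in KO against 16.7, 24.4 and 13.98 CPM in wt (log2 1.16 ± 0.18, adjusted p 0.0013). Sp110, also a nuclear body protein, had 8.63, 10.2 and 8.95 CPM in KO against 5.19, 5.80 and 5.04 CPM in wt (0.78 ± 0.15, adjusted p 0.012). Gbp4 had 30.7, 31.4 and 33.5 CPM in KO against 12.9, 19.6 and 13.1 CPM in wt (1.06 ± 0.19, adjusted p 0.0079). The 3 genes had clear gaps between the groups. Gbp9 had 78.3, 76.5 and 81.5 CPM in KO against 46.7, 55.9 and 40.2 CPM in wt (0.73 ± 0.16, adjusted p 0.028). Irgm2, which overlaps Igtp, had 37.0, 39.1 and 36.3 CPM in KO against 22.6, 26.0 and 17.3 CPM in wt (0.77 ± 0.17, adjusted p 0.041). Pydc4 was low throughout, with 2.32, 1.46 and 3.26 CPM in KO against 0.138, 1.09 and 0.511 CPM in wt (1.80 ± 0.41, adjusted p 0.042), and its groups did not overlap.

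The remaining pair was Mlkl and Bst2. Mlkl had 15.9, 16.6 and 17.2 CPM in KO against 8.85, 8.70 and 10.02 CPM in wt (log2 0.84 ± 0.16, adjusted p 0.012). Bst2 had 86.3, 88.5 and 114 CPM in KO against 47.7, 52.6 and 53.7 CPM in wt (0.91 ± 0.20, adjusted p 0.038). Both were separated between KO and wt. The IFIT genes had log2 values of 1.75 (Ifit3), 1.56 (Ifit1) and 0.79 (Ifit2) and did not pass (adjusted p 0.12, 0.051 and 0.46), nor did Isg15 (1.16, adjusted p 0.14), Dhx58 (1.00, adjusted p 0.084) or Iigp1 (1.08, adjusted p 0.27).

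The number of P5 calls moved with almost every library. It was 1 without wt library 1, 16 without wt library 2, 2 without wt library 3, 4 without KO library 1, 4 without KO library 2 and 3 without KO library 3. Sp100 alone was called in all of these fits. With no low-count filter 35 members were called, in a fit of the 6 libraries alone 25, and with DESeq2 17. Endothelial markers summed to 16430 to 18460 CPM in KO and 16480 to 18260 CPM in wt with none of 12 called, and the microglia markers to 91.6 to 108 CPM in KO and 86.6 to 124 CPM in wt with none of 10 called. Smooth muscle markers were apart, at 29.7 to 34.6 CPM in KO against 46.1 to 57.5 CPM in wt (1 of 3 lower), as were fibroblast markers, at 290.0 to 305.2 CPM in KO against 357 to 429 CPM in wt (none of 5 called). Other leukocyte markers summed to 15.9 to 16.1 CPM in KO against 12.3 to 14.9 CPM in wt (none of 10 tested called). The part of these in the P5 differences was not tested.

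**Figure D2:**
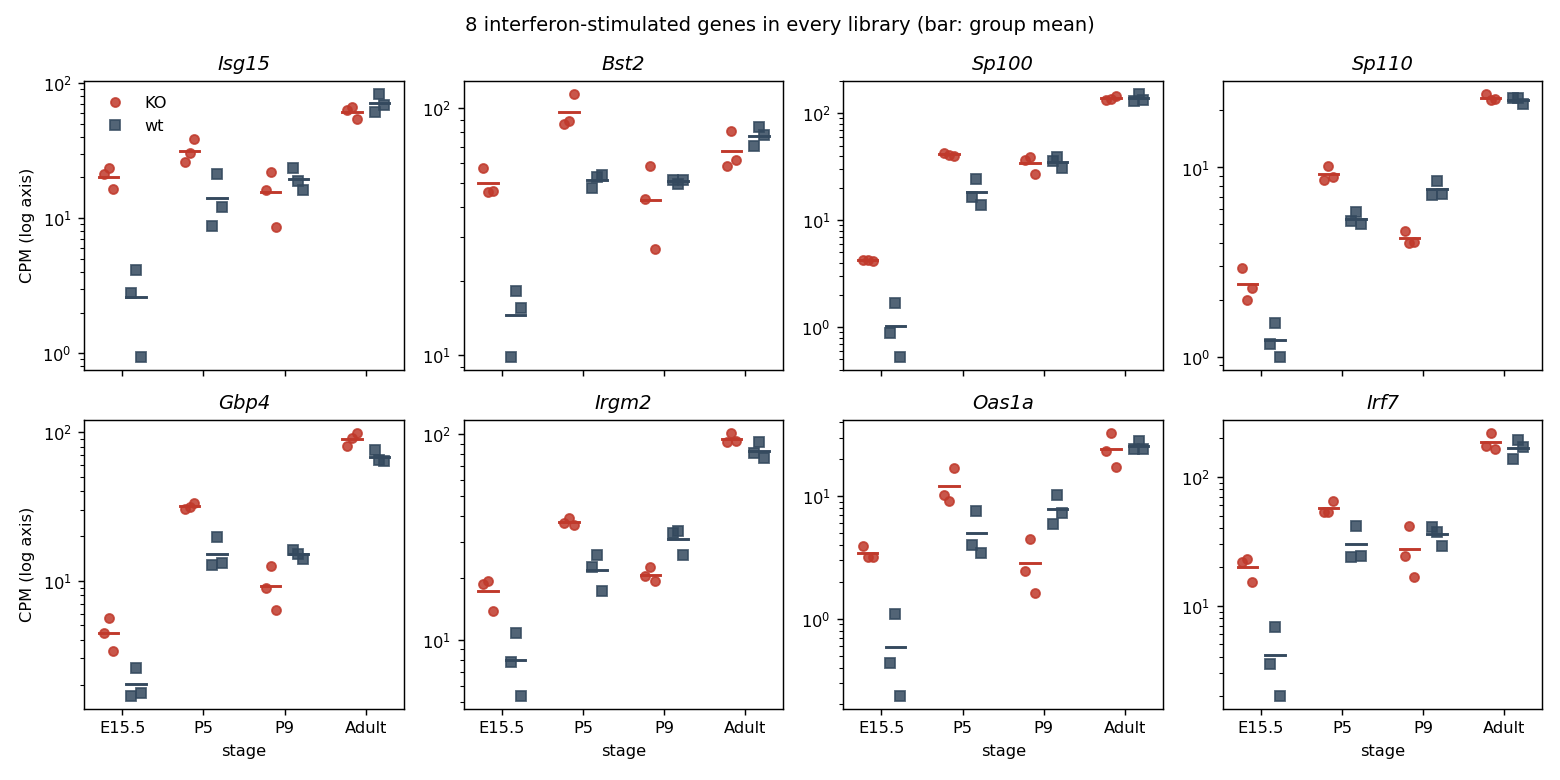
CPM of 8 members on a log axis (each panel with its own range) in every library, with KO circles left of wt squares at each stage and bars for the means of 3 libraries. Isg15 in KO embryos lies between 16.3 and 23.3 CPM, above all wt embryos, and Sp110 at P9 lies between 4.01 and 4.62 CPM in KO, below all P9 wt libraries.

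At P9 the direction was no longer shared. The median log2 fold change was -0.19, with 14 members above 0 and 30 below, and 6 were called lower and none higher by edgeR's quasi-likelihood test, although Iigp1 (log2 0.77) was higher at an unadjusted p under 0.05 and 2 members were called higher with no low-count filter. At this stage 13.5% of all genes were called higher and 14.6% lower, so the 6 lower calls among 44 are a share close to that of all genes. KO libraries lay below wt libraries for 9 members, and above for none, where 21.7% and 19% of all genes did so. The summed level was 1132, 1388 and 798 CPM in KO against 1311, 1334 and 1138 CPM in wt, which overlap.

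Sp110 had 4.62, 4.01 and 4.03 CPM in KO against 7.19, 8.49 and 7.28 CPM in wt (log2 -0.85 ± 0.15, adjusted p 0.00019). Oas1a had 2.44, 4.43 and 1.61 CPM in KO against 5.88, 10.1 and 7.35 CPM in wt (-1.42 ± 0.36, adjusted p 0.0046). Oasl2, an OAS-like protein, had 21.3, 35.5 and 14.6 CPM in KO against 47.5, 44.9 and 42.0 CPM in wt (-0.91 ± 0.31, adjusted p 0.029). KO library 2 was the highest KO library of the last 2 genes but still below every wt library. Gbp4 had 8.91, 12.6 and 6.39 CPM in KO against 16.2, 15.2 and 14.1 CPM in wt (-0.70 ± 0.20, adjusted p 0.012). Irgm2 had 20.4, 22.5 and 19.4 CPM in KO against 33.0, 33.7 and 25.9 CPM in wt (-0.57 ± 0.18, adjusted p 0.018). Gbp3 had 44.4, 51.4 and 31.5 CPM in KO against 64.6, 74.9 and 58.2 CPM in wt (-0.64 ± 0.22, adjusted p 0.033). These 3 GTPase genes did not overlap between KO and wt either.

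KO library 3 was the lowest KO library for 41 of the 44 members. Without it the median log2 fold change was 0.03 in place of -0.19, 2 members were called lower, Sp110 and Oas1a, and 1 higher, Iigp1. The lower calls numbered 12 without KO library 2, 3 without wt library 1 and 3 without wt library 2. The summed endothelial markers were higher in KO at P9, at 23390 to 28390 CPM against 17680 to 18210 CPM in wt. They did not move together, with 6 of 12 called higher and 2 lower. Slc2a1 lay at 4922 to 5845 CPM in KO against 1363 to 1484 CPM in wt. Cldn5 lay at 6717 to 9681 CPM in KO against 5455 to 5830 CPM in wt. Kdr (1784 to 1977 CPM in KO against 2487 to 2618 CPM in wt) and Tek (465 to 528 CPM against 624 to 640 CPM) lay below wt. When libraries were scaled to the sum of the 12 markers, the median of all genes fell by 0.461 on the log2 scale. That of the members was -0.71, and 32 members were called lower. Pericyte markers summed to 716 to 1769 CPM in KO against 2745 to 3773 CPM in wt (5 of 8 lower), and microglia markers to 40.2 to 43.8 CPM in KO against 56.0 to 64.2 CPM in wt (2 of 10 lower). Smooth muscle markers were lower in KO as well (2 of 3). Of 5 fibroblast markers 4 were lower and 1, Pdgfra, was higher. Their sums overlapped, at 140 to 211 CPM in KO and 206 to 275 CPM in wt. Astrocyte markers were higher (3 of 5). The part of all these markers in the result was not tested.

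In adults no member was called by edgeR's quasi-likelihood test, where 0.0291% of all genes were called higher and 0.0583% lower. Only Gbp4 had an unadjusted p under 0.05 there, 1 member did with DESeq2, 0 did with limma-trend, and neither of those tools called a member. The median log2 fold change was 0.03, 27 members were above 0 and 17 below, and 40 lay within 0.25 of 0. KO lay above wt without overlap for 4 members (5.09% of all genes), namely Iigp1, Irgm2, Pydc4 and Gbp4, and below for 1 (5.79%), Cmpk2. The members with the smallest unadjusted p were Gbp4, with 81.3, 91.5 and 98.7 CPM in KO against 75.9, 64.6 and 64.4 CPM in wt (log2 0.40 ± 0.19, adjusted p 1), Pydc4, with 3.23, 5.22 and 4.62 CPM in KO against 2.51, 2.60 and 2.57 CPM in wt (0.74 ± 0.37, adjusted p 1), and Irgm2, with 91.6, 101 and 92.6 CPM in KO against 81.2, 91.6 and 76.8 CPM in wt (0.19 ± 0.17, adjusted p 1). The groups of Gbp4 and Pydc4 were apart and those of Irgm2 nearly touched. The summed level was 2863, 3258 and 2950 CPM in KO against 2822, 3193 and 2822 CPM in wt.

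**Figure D3:**
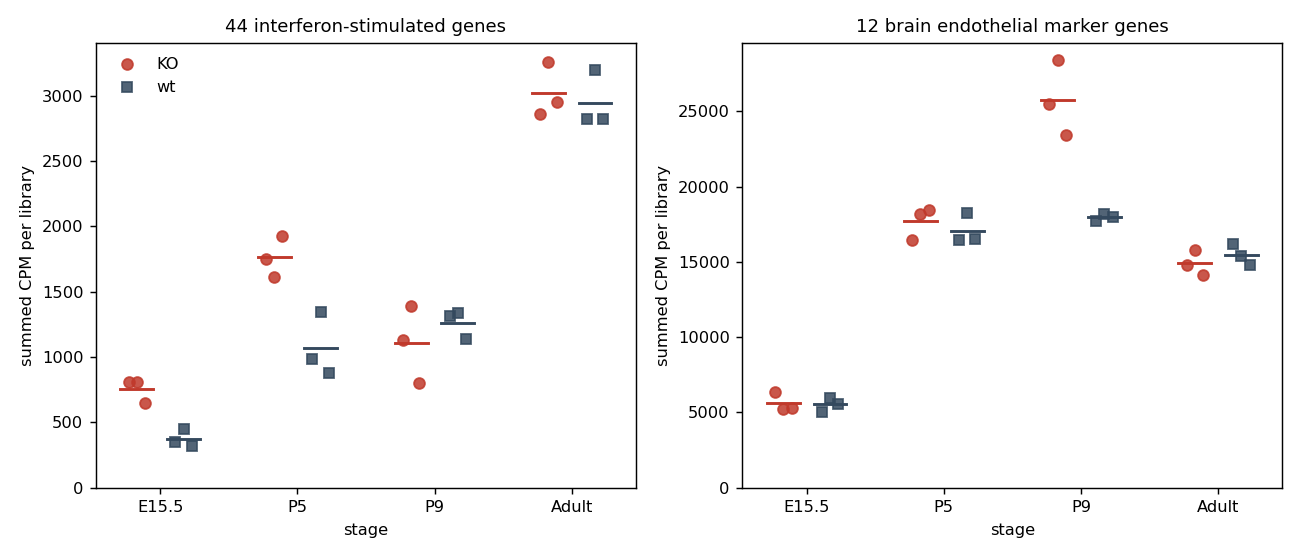
Summed CPM of the 44 members (left) and of 12 endothelial markers (right) in each library, KO circles left of wt squares at each stage, with bars for the means of 3 libraries. The members' sum separates KO from wt at E15.5 and P5 and not at P9 or in adults, while the endothelial sum separates them at P9.

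Whether the KO effect differed between stages was tested directly. The interaction of genotype and stage passed for 31 members, where 13.5% of all genes passed. Setting the KO effect at P9 against that at E15.5, 32 members were lower and none higher, against 8.65% and 7.13% of all genes. Between adults and E15.5 the effect was lower for 11 members and higher for none, against 0.111% and 0.0466% of all genes, and that count ranged from 2 to 19 when single libraries were left out (2 without E15.5 wt library 1 or wt library 3, 19 without E15.5 wt library 2, and 11 without E15.5 KO library 3). It was 2 without both E15.5 libraries numbered 3, namely Bst2 and Isg15. Against P5 the effect at P9 was lower for 20 members and higher for none, against 8.44% and 7.26% of all genes, with 13 to 35 when single libraries were left out (13 without P5 wt library 1, 14 without P5 wt library 3, 33 without P5 wt library 2 and 35 without P9 KO library 2). By edgeR's test no member was called between P5 and E15.5, where 17 had an unadjusted p under 0.05 and 0.0291% of all genes were called higher and 0.00583% lower, or between adults and P5, where 29 had an unadjusted p under 0.05 and 0.035% of all genes were called lower. limma-trend called none in either, and with no low-count filter edgeR called 8 and 18 members lower. Adults against P9 gave 3 members with a higher effect in adults, Sp110 (0.88), Gbp4 (1.11) and Irgm2 (0.76), and none with a lower one, against 6.72% and 6.5% of all genes, and the call of Irgm2 was lost on leaving out any 1 of 9 of the 12 libraries (adjusted p 0.0552 to 0.0966), while 6 members were called without P9 KO library 2.

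Calls by stage are given as counts, and members were not tested against each other. The share of all genes with each pattern was not counted. Of all genes, 0.42% were called higher at E15.5 and 0.396% at P5. A call at 1 stage alone is not a tested difference between stages. By edgeR's test no member's KO effect was called different between P5 and E15.5. There were 18 members called higher at E15.5 and at no other stage, among them Isg15, Usp18, Irf7, Ifit1, Ifi44 and Rtp4. At P5 the genes just named also lay above wt without overlap, though without a call. Another 5 were called higher at both E15.5 and P5 (Bst2, Gbp9, Mlkl, Pydc4 and Sp100). Gbp4, Irgm2 and Sp110 were called higher at E15.5 and P5 and lower at P9, and Gbp3, Oas1a and Oasl2 higher at E15.5 and lower at P9. The remaining 15 were called at no stage. The fitted log2 fold change was larger at E15.5 than at P5, and larger at P5 than at P9, for 36 of 44. How many of all genes had this order was not counted. Pairs of stages with a stage in common share its libraries, and the interaction is fitted to the same values. Averaged over the 4 stages, 31 members were called higher and none lower, against 4.8% and 3.87% of all genes, with the smallest adjusted p for Sp100 (log2 0.75) and Mlkl (0.55) and the largest log2 value for Ifit1 (1.21).

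The 6 smallest interaction p belonged to Sp110 (adjusted p 1.1e-05), Bst2 (4.4e-05), Sp100 (6.7e-05), Isg15 (9.8e-05), Oas1a (0.00016) and Irgm2 (0.00022). Sp110 had 2.93, 2.01 and 2.32 CPM in KO embryos against 1.17, 1.51 and 1.00 CPM in wt embryos, and 24.4, 22.8 and 22.9 CPM in KO adults against 23.4, 23.3 and 21.6 CPM in wt adults. Sp110 was thus separated upward at E15.5 and P5 and downward at P9, and overlapped in adults. Oas1a had 3.93, 3.21 and 3.20 CPM in KO embryos against 0.439, 1.09 and 0.236 CPM in wt embryos, 10.2, 9.08 and 16.9 CPM in P5 KO against 4.01, 7.49 and 3.45 CPM in P5 wt, and 23.2, 32.6 and 17.2 CPM in KO adults against 24.3, 28.4 and 24.3 CPM in wt adults. Irgm2 had 18.8, 19.3 and 13.9 CPM in KO embryos against 7.84, 10.8 and 5.36 CPM in wt embryos. Both genes lay above wt at E15.5 and P5 and below wt at P9 in every library, and in adults Oas1a overlapped.

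The other 3 genes are given here at the stages not yet shown. Bst2 had 42.8, 58.3 and 27.0 CPM in KO at P9 against 51.1, 49.4 and 51.5 CPM in wt, and 58.2, 81.1 and 61.7 CPM in KO adults against 70.4, 83.8 and 78.1 CPM in wt adults. Sp100 had 36.6, 38.8 and 27.3 CPM in KO at P9 against 36.1, 38.8 and 30.7 CPM in wt, and 132, 137 and 147 CPM in KO adults against 132, 151 and 134 CPM in wt adults. For Isg15 the P5 values were 25.8, 30.1 and 38.6 CPM in KO against 8.79, 21.03 and 12.1 CPM in wt, without overlap. Isg15 at P9 had 16.2, 22.0 and 8.57 CPM in KO against 23.3, 18.9 and 16.1 CPM in wt, and in adults 62.9, 66.4 and 53.9 CPM in KO against 61.0, 82.5 and 69.1 CPM in wt. KO and wt overlapped in each of these P9 and adult comparisons.

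The wt libraries alone show how the levels of these genes in the isolated cells differed between stages. Differences between stages carry those of tamoxifen and kit given at the start. From E15.5 to P5, 38 members rose and 1 fell, with a median log2 change of 2.09, against 36.2% and 30.4% of all genes. Sp100 had 16.7, 24.4 and 13.98 CPM at P5 against 0.879, 1.69 and 0.531 CPM at E15.5 (log2 3.99 ± 0.25, adjusted p 4.4e-12). Gbp9 had 46.7, 55.9 and 40.2 CPM at P5 against 6.37, 9.24 and 5.13 CPM at E15.5 (2.76 ± 0.18, adjusted p 8.1e-12). Ifi35, a partner of the protein NMI, had 32.7, 43.998 and 30.4 CPM at P5 against 8.06, 9.84 and 8.13 CPM at E15.5 (2.02 ± 0.16, adjusted p 3.4e-10), and Mlkl had 8.85, 8.70 and 10.02 CPM at P5 against 1.68, 1.81 and 1.89 CPM at E15.5 (2.28 ± 0.19, adjusted p 3.5e-10). All 4 were several times higher at P5 in every library. Stat2 fell (-0.32, adjusted p 0.011), a call lost without P5 wt library 3 (adjusted p 0.079). Endothelial markers rose over the same interval, to 16480 to 18260 CPM at P5 against 5053 to 5949 CPM at E15.5, and so did microglia markers, to 86.6 to 124 CPM at P5 against 27.5 to 32.4 CPM at E15.5 (9 of 10 higher). Pericyte (8 of 8), smooth muscle (3 of 3), oligodendrocyte (5 of 5), astrocyte (4 of 5), fibroblast (2 of 5) and other leukocyte markers (7 of 10) rose too, while neuron (5 of 5), red cell (6 of 7) and platelet markers (4 of 5) fell. Their part in the members' rise was not tested. With libraries scaled to the endothelial markers alone, the median of all genes fell by 1.48 on the log2 scale. In that fit the members' median was 0.55, and 25 members were called higher and 7 lower.

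From P5 to P9 the wt members were nearly level. Their median log2 change was 0.21, and 1 member was called higher and none lower, against 2.67% and 2.45% of all genes. That member was Sp100, with 36.1, 38.8 and 30.7 CPM at P9 against 16.7, 24.4 and 13.98 CPM at P5 (log2 0.94 ± 0.18, adjusted p 0.0033). Its P9 libraries all lay above its P5 libraries. With no low-count filter the count was 5.

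From P9 to adulthood 38 members rose and 1 fell, with a median log2 change of 1.43, against 30.8% and 30.3% of all genes. Oas2, an oligoadenylate synthetase, had the largest change, with 19.7, 27.7 and 17.7 CPM in adults against 0.392, 0.566 and 0.571 CPM at P9 (log2 5.10 ± 0.33, adjusted p 6.4e-12). Sp100 had 132, 151 and 134 CPM in adults against 36.1, 38.8 and 30.7 CPM at P9 (1.98 ± 0.18, adjusted p 1.5e-09). Gbp4 had 75.9, 64.6 and 64.4 CPM in adults against 16.2, 15.2 and 14.1 CPM at P9 (2.16 ± 0.20, adjusted p 2.0e-09), and Cmpk2 had 58.3, 67.2 and 59.7 CPM in adults against 12.4, 9.16 and 10.9 CPM at P9 (2.499 ± 0.23, adjusted p 2.3e-09). Adult and P9 libraries were far apart for all 4. Ifit3 (5.06), Ifit1 (3.80), Iigp1 (3.68) and Rsad2 (3.01) rose as well, and Ddx58 fell (-0.51, adjusted p 0.0057). Microglia markers summed to 156 to 374 CPM in wt adults against 56.0 to 64.2 CPM in P9 wt, and oligodendrocyte markers to 19250 to 23170 CPM against 925 to 1705 CPM. Endothelial markers summed to 14810 to 16150 CPM in wt adults against 17680 to 18210 CPM in P9 wt (7 of 12 lower, 4 higher). Pericyte (8 of 8), fibroblast (4 of 5) and red cell markers (4 of 7) fell. Smooth muscle (3 of 3) and astrocyte markers (4 of 5, with 1 lower) rose. The part of all these markers in the members' rise was not tested.

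Adults against E15.5 gave 44 of 44 members higher in wt, with a median of 3.61, against 35.2% of all genes higher and 34.3% lower. Scaled to endothelial markers, Irf9 (-0.59) and Stat2 (-0.42) were lower. Endothelial markers summed to 14810 to 16150 CPM in adults against 5053 to 5949 CPM at E15.5, microglia markers to 156 to 374 CPM in adults against 27.5 to 32.4 CPM at E15.5, and oligodendrocyte markers to 19250 to 23170 CPM in adults against 37.0 to 54.4 CPM at E15.5. Astrocyte (5 of 5) and smooth muscle markers (3 of 3) were higher in adults too. Pericyte (7 of 8), neuron (3 of 5), red cell (7 of 7), platelet (5 of 5) and fibroblast markers (2 of 5) were lower. The part of all these markers in the members' rise was not tested. Sp100 rose by 6.90 ± 0.25 log2 (adjusted p 1.5e-16), with the values given above. Sp110 had 23.4, 23.3 and 21.6 CPM in adults against 1.17, 1.51 and 1.00 CPM at E15.5 (4.08 ± 0.17, adjusted p 2.1e-15). Gbp9 had 108, 106 and 97.7 CPM in adults against 6.37, 9.24 and 5.13 CPM at E15.5 (3.88 ± 0.18, adjusted p 9.5e-15), and Gbp4 had 75.9, 64.6 and 64.4 CPM in adults against 1.68, 2.60 and 1.77 CPM at E15.5 (4.99 ± 0.24, adjusted p 1.5e-14). None of these came near overlap. Adults lay above E15.5 without overlap for 43 members, against 37.3% of all genes. Mx1 was the one member whose call was lost when single libraries were left out (adjusted p 0.068 to 0.12 without E15.5 wt library 1 or 3 or adult wt library 1 or 2).

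**Figure D4:**
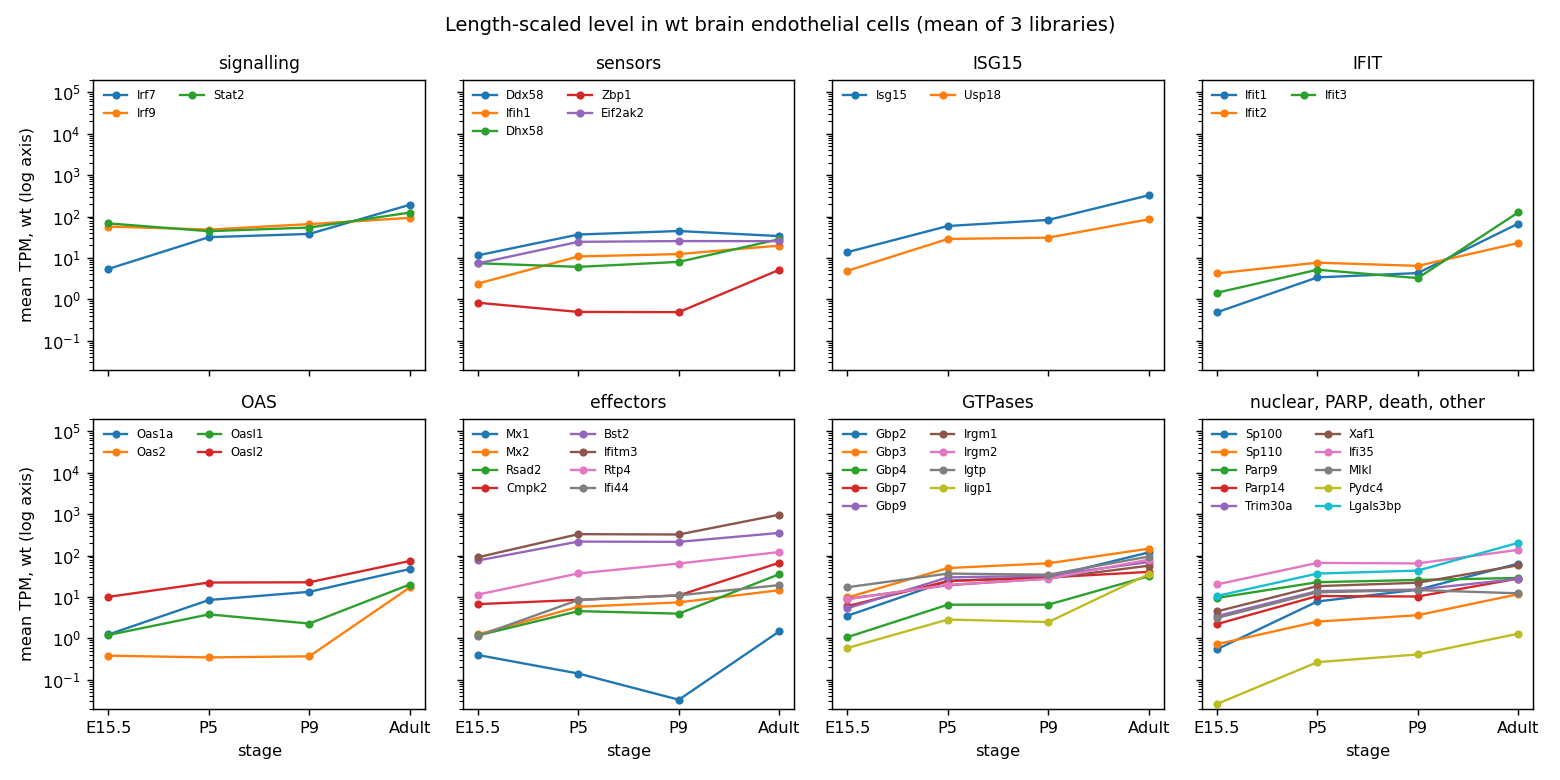
Mean TPM (a length-scaled level, log axis) of each member in the 3 wt libraries of each stage, in panels by role. Most lines climb between E15.5 and P5, run level to P9 and climb again to adults, and Oas2 stays below 1 TPM until P9 and is at 16.97 TPM in adults.

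Levels between genes are compared on the authors' length-scaled values (TPM), as means over libraries. As a mean over all 24 libraries, to which adults give the most, Ifitm3 was the highest member at 473 TPM and Mx1 the lowest at 0.562 TPM. The order differed between groups. In KO embryos Bst2 (264 TPM) stood above Ifitm3 (232 TPM), and in wt embryos Ifitm3 (90.9 TPM) and Bst2 (76.0 TPM) were followed by Stat2 (68.2 TPM) and Irf9 (57.2 TPM). In wt adults Ifitm3 (967 TPM), Bst2 (352 TPM) and Isg15 (325 TPM) were the highest. Ifitm3 had 42.7, 39.6 and 34.4 CPM in KO embryos against 13.5, 22.5 and 10.3 CPM in wt embryos, and 205, 232 and 165 CPM in KO adults against 186, 187 and 194 CPM in wt adults, so it was apart at E15.5 and overlapping in adults. Its P5 values were 103, 112 and 149 CPM in KO against 64.7, 81.2 and 61.3 CPM in wt, and its P9 values 48.1, 61.4 and 36.9 CPM in KO against 74.3, 66.0 and 63.2 CPM in wt. Mx1 was at the edge of detection before adulthood. It had 0.720, 0.535 and 0.103 CPM in KO embryos against 0, 1.09 and 0 CPM in wt embryos, 0.398, 0.277 and 0.675 CPM in P5 KO against 0.0692, 0.363 and 0.0638 CPM in P5 wt, and 0.420, 0.243 and 0.0575 CPM in P9 KO against 0, 0.113 and 0 CPM in P9 wt. In adults Mx1 had 1.10, 1.07 and 1.96 CPM in KO against 1.75, 1.85 and 1.04 CPM in wt, and KO and wt overlapped at every stage.

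Libraries of 1 group differed in these genes together. Among wt embryos library 2 was the highest for 38 members and library 3 the lowest for 32, among P5 wt library 2 was the highest for 40, among P9 KO library 2 was the highest for 38 and library 3 the lowest for 41, and among adult wt library 2 was the highest for 35. The members' median deviation from the group mean reached 0.43 log2 in wt embryo library 2 and -0.46 in P9 KO library 3. Across the 24 libraries, after subtracting group means, Pearson's r was above 0 for 941 of the 946 pairs of members with a median of 0.69, while the median over all tested genes was -0.0005. These pairs share libraries and are given as a description. Zbp1 followed the others least, with a mean r of 0.22.

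**Figure D5:**
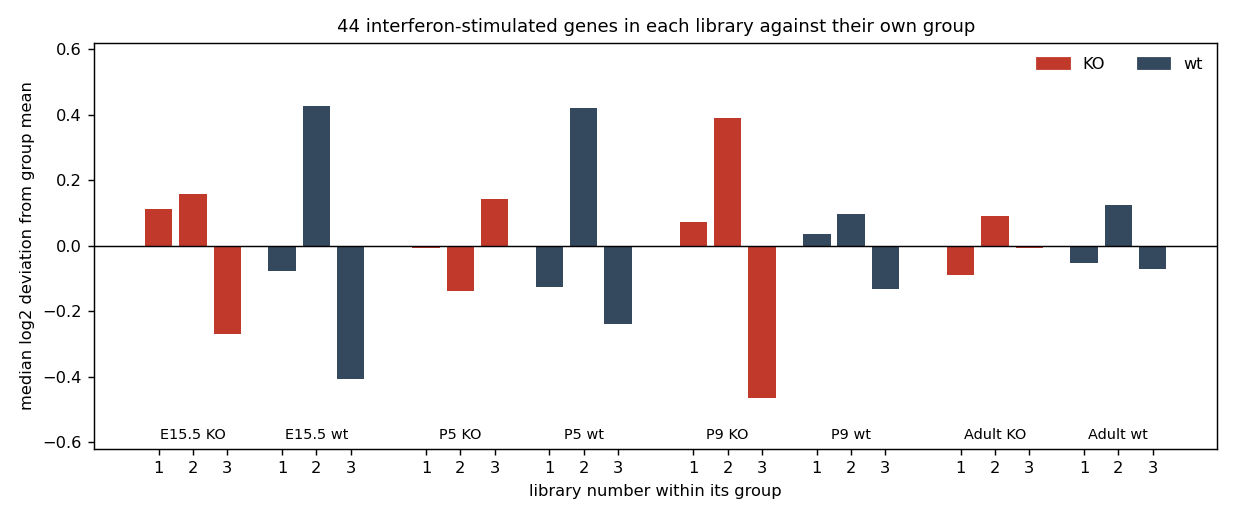
Median over the 44 members of each library's log2 deviation from its group's mean, in KO (red) and wt (dark) libraries of each stage. The bars range from -0.46 in P9 KO library 3 to 0.43 in wt embryo library 2 and are short in adults.

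Upstream of these genes, transcripts of interferons themselves were at the limit of detection. The 21 ligand genes had 66 counts in all over the 24 libraries, 11 of them had none, and no ligand passed the filter for testing. Ifnb1 had 0 counts in every E15.5, P5 and wt library and 4 counts in all, in KO libraries at P9 and in adults, and Ifng had 1 count, in an adult wt library. A count of 0 allows up to 0.244 CPM in the shallowest library. Ifnab, an interferon alpha gene, held 36 of the 66 counts, 16 of them in 1 library.

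Receptors and kinases were expressed at every stage. Ifnar1, the type I receptor chain, had 137, 130 and 139 CPM in KO embryos against 129, 135 and 132 CPM in wt embryos (log2 0.04, adjusted p 1), and Ifnar2 43.0, 43.3 and 42.4 CPM in KO against 36.2, 41.3 and 49.5 CPM in wt (0.02, adjusted p 1). Ifngr1 and Ifngr2, the interferon gamma receptor, had E15.5 values of 0.14 and 0.07 (adjusted p 1 each). KO and wt overlapped for all 4. Of the 9 genes of this list none was called at E15.5, at P5 or in adults by edgeR, where 0, 0 and 1 had an unadjusted p under 0.05, and at P9 Ifnar1 (0.45), Jak2 (0.66) and Jak1 (0.32) rose and Ifngr1 fell (-0.31, adjusted p 0.029).

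Of transcription factors outside the members, those reported here were called at P9. Irf1, an interferon gamma target, had 50.9, 55.8 and 42.5 CPM in KO at P9 against 30.6, 31.2 and 22.8 CPM in wt (log2 0.81 ± 0.15, adjusted p 0.00019). KO and wt did not overlap there, and Irf1 was not called at E15.5 (0.43), at P5 (0.46) or in adults (-0.15). Stat3 rose at P9 too (0.51). At P9, where so many of all genes were called, few calls in a list are no result about that list. Of 12 upstream sensors and adaptors, P9 gave Tbk1, a kinase of the sensing pathways (0.36), higher and Mb21d1, which encodes the DNA sensor cGAS (-1.40, adjusted p 0.00016), lower. No other stage gave a call by edgeR, with 3, 1 and 0 genes at an unadjusted p under 0.05 at E15.5, P5 and in adults. Of 8 negative regulators tested, P9 gave Samhd1, a dNTP hydrolase (1.91), and Socs3, an inhibitor of JAK signalling (1.87), higher and the RNase H2 subunit genes Rnaseh2a (-0.42) and Rnaseh2b (-0.51) lower, and again no other stage gave a call (1, 0 and 0 genes at an unadjusted p under 0.05).

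A further 59 interferon-induced genes were listed, of which 51 could be tested. At E15.5 8 rose and none fell, against 0.42% and 0.128% of all genes, with a median of 0.60. The 8 were Ly6a (1.84), Parp12 (1.20), Tap1, the peptide transporter of antigen presentation (1.11), Slfn5 (1.03), Samd9l (0.93), Ifi47 (0.84), B2m, the light chain of class I molecules (0.83), and Helz2 (0.70). At P5 Ccl5, Ly6a (1.32) and B2m (0.76) rose and none fell, where 0.396% of all genes were called higher and 0.134% lower. The median of the list was 0.48 (26 genes at an unadjusted p under 0.05). Ccl5, a chemokine, had 2.72, 2.01 and 3.32 CPM in KO against 0, 0 and 0.255 CPM in wt, with no overlap. At P9 4 rose (Ly6a, Ccl5, Ly6e and Tor3a) and 5 fell (Ifi47, Ifi27, Mov10, Cd274 and Epsti1) of the 51, where 13.5% of all genes were called higher and 14.6% lower. In adults none was called by edgeR, with 1 at an unadjusted p under 0.05, where 0.0291% of all genes were called higher and 0.0583% lower. Ly6a (Sca-1, a surface marker of haematopoietic stem cells) had 422, 562 and 347 CPM in KO at P9 against 116, 117 and 87.0 CPM in wt (2.05 ± 0.21, adjusted p 9.7e-08). Between wt stages, P5 against E15.5 gave 38 of the 51 higher and none lower, against 36.2% and 30.4% of all genes. Adults against P9 gave 34 higher and 4 lower in wt, against 30.8% and 30.3% of all genes. For wt adults against E15.5 the counts were 44 higher and 2 lower, against 35.2% and 34.3% of all genes.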

How the data were processed

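Strand-specific libraries of polyadenylated RNA, 24 in all, were run on an Ion Proton sequencer. Raw read counts on the gene strand for each of 45468 genes, in the unit of counts, were deposited by the authors, with FPKM (scaled by length and library total) and TPM (length-scaled) columns of the same counts, per the file headers. Build mm10, STAR 2.5.3a, SAMtools 1.5, FastQC and Trim Galore 0.4.1 are listed, per the submitters' processing notes. The gene annotation release and the handling of reads in overlapping genes are not given in the sources used here. Samples were grouped by the labels. The TPM values of the authors were used for levels between genes and the FPKM values of the authors were not used further.

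Counts of all 24 libraries entered 1 model of edgeR 4.0.16 (quasi-likelihood test, R 4.3.3) with 1 mean per group (16 residual degrees of freedom), TMM scaling and a prior count of 2, over the 17159 genes whose mean reached 10 counts in 1 group or more. P-values are two-sided, with Benjamini-Hochberg adjustment over all tested genes, and called, rose, fell or passed means an adjusted p under 0.05. "No overlap" means that every library of one group lay above every library of the other. Depth was 12301779 to 19830600 counts per library. Where a group held 3 counts or fewer, a ratio of counts stands in place of the fitted fold change. Floors and intervals reflect counting error alone. Alternatives were DESeq2 1.42.0 size factors and test, limma-trend in limma 3.58.1, no low-count filter, scaling to endothelial markers, a replicate block, leaving out libraries, and a fit with only the 6 libraries being compared. The pipeline was tested on simulated data.

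The members, the marker and pathway lists and the rule for named genes were chosen with earlier results of these data known. Values in every library were given for up to 8 called members per KO comparison (or the 3 with the smallest p where fewer than 3 were called), 6 in the interaction, 4 in each wt comparison, and the members with the highest and the lowest level. In the pathway lists the called genes of KO comparisons were named, up to 6 or all where few. Genes that the rule names in wt or averaged comparisons of those lists are not all reported here, and 1 gene of the lists is left out. Promoters were those of RefSeq on GRCm38.p6 for 31 of the 44 members.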

Additional observations from a re-analysis of the deposited data

Results flagged for a closer look

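The difference of KO and wt itself differed between the 4 stages for 31 members, by the interaction term of edgeR's quasi-likelihood test, whose adjusted p stands in parentheses here. In signalling and transcription this was Irf7 (0.00093). Among nucleic acid sensors these were Ddx58 (0.0059), Ifih1 (0.0067) and Eif2ak2 (0.0043). In the ISG15 system these were Isg15 (9.8e-05) and Usp18 (0.00071). In the IFIT family this was Ifit1 (0.0058). In the OAS family these were Oas1a (0.00016), Oas2 (0.0071), Oasl1 (0.033) and Oasl2 (0.0026). Among antiviral effectors these were Mx2 (0.0053), Bst2 (4.4e-05), Ifitm3 (0.00051), Rtp4 (0.00048) and Ifi44 (0.00036). Among GTPases these were Gbp3 (0.0008), Gbp4 (0.00025), Gbp9 (0.00072), Irgm1 (0.011), Irgm2 (0.00022) and Igtp (0.015). Among nuclear body, PARP, cell death and other proteins these were Sp100 (6.7e-05), Sp110 (1.1e-05), Parp9 (0.0037), Parp14 (0.0016), Trim30a (0.035), Xaf1 (0.00047), Ifi35 (0.031), Mlkl (0.00076) and Pydc4 (0.002). 

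Of the genes named from the interferon pathway lists, 16 that are reported here differed between stages by the same test, and other genes of these lists did too. In signalling, sensing and its inhibitors they were Ifnar1 (0.039), Stat3 (0.042), Irf1 (0.012), Mb21d1 (0.0012), Socs3 (0.0042) and Samhd1 (2.1e-06). Among further interferon-induced genes they were Ifi27 (0.013), Ifi47 (0.00047), Ly6e (0.027), Ly6a (0.00031), Parp12 (0.0015), Slfn5 (0.025), Ccl5 (0.0064), Tap1 (0.0063), B2m (0.0072) and Cd274 (0.0081). The same test passed 13.5% of all genes. It passed 1 of 9 receptors and kinases and 1 of 12 sensors and adaptors, which is no result about those 2 lists. It passed 2 of 8 negative regulators and 19 of 51 further interferon-induced genes.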

How the results depend on the processing

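Directions and counts within 1.5 times of those reported were obtained in the other fits run, except as follows. In fits of the 6 compared libraries alone, members called higher numbered 4 at E15.5 in place of 29, 25 at P5 in place of 8, and 4 for wt P9 against P5 in place of 1, and 2 in place of 1 were lower for wt adults against P9. With no low-count filter, 35 were higher at P5, 2 at P9 in place of 0, and 5 for wt P9 against P5. In that fit the KO effect was lower for 8 members at P5 than at E15.5 (0 with the filter), 30 in adults than at E15.5 (11), 32 at P9 than at P5 (20) and 18 in adults than at P5 (0). For the KO effect in adults against P9 the same fit called 7 members in place of 3. The DESeq2 test gave 17 higher at P5 and 3 for wt P9 against P5, and limma-trend 2 for wt P9 against P5. Without both E15.5 libraries numbered 3, 2 members had a lower KO effect in adults than at E15.5. Why these counts moved was not tested.

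Scaling to endothelial markers gave 32 members lower at P9 in place of 6, 41 in place of 20 with a lower KO effect at P9 than at P5, 25 higher and 7 lower for wt P5 against E15.5 in place of 38 and 1, 0 lower for wt adults against P9 in place of 1, and 2 lower for wt adults against E15.5 in place of 0. This scaling called 23 members in place of 3 for the KO effect in adults against P9, with a median of 0.74 in place of 0.18. It reversed Cmpk2 (-0.96), Ifit2 (-0.45), Igtp (-0.22), Irgm1 (-0.21), Irgm2 (-0.17), Oasl2 (-0.16) and Parp9 (-0.0628) for wt P5 against E15.5, and Irf9 (-0.59) and Stat2 (-0.42) for wt adults against E15.5. By construction it shifts all genes with the marker sum.

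Leaving out single libraries, members called higher ranged from 20 to 30 at E15.5, 1 to 16 at P5, 0 to 1 at P9, 27 to 38 averaged over stages, 36 to 38 for wt P5 against E15.5, 1 to 2 for wt P9 against P5, 35 to 38 for wt adults against P9 and 43 to 44 for wt adults against E15.5. Lower calls ranged from 2 to 12 at P9 and 0 to 1 for wt P5 against E15.5. The interaction gave 28 to 39. Lower KO effects ranged from 30 to 38 for P9 against E15.5, 2 to 19 for adults against E15.5, 13 to 35 for P9 against P5, 0 to 2 for P5 against E15.5 and 0 to 1 for adults against P5.

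The replicate numbers were not used as pairs in the main fit. Of 12 same-numbered pairs 2 had a correlation of deviations over 0.1 (range -0.08 to 0.49), and 6 of 12 KO libraries correlated best with their own number. Both pairs over 0.1 were at E15.5, with 0.368 for the libraries numbered 2 and 0.486 for those numbered 3. E15.5 KO library 1 had 0.065 with wt library 1 and 0.252 with wt library 2. Whether same-numbered E15.5 libraries shared a batch was not tested. A fit with the replicate number as a block called 23 members higher at P5, 4 higher for wt P9 against P5, and 20 with a lower KO effect in adults than at E15.5. At E15.5 the block fit called 31 members in place of 29. The stricter response element, with CT after the core, was found for 35.5% of the 31 members with a promoter in place of 58.1%. Depth limits Mx1, Pydc4 and the ligands, with few counts per library before adulthood.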
